A study of Mus musculus with 8 samples.

Results

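The cAMP-responsive transcription factors Crem, Creb1 and Atf1, the CREB coactivators Crtc2 and Crtc3 and the kinase Sik1 were followed across all conditions of the series, with every probe set annotated to 1 of these 6 symbols alone. Of 18193 genes named by a single symbol on the array, 5 of the 6 had probe sets of their own, 16 in all. Crem had 4, Creb1 had 6, and Crtc2, Crtc3 and Sik1 had 2 each. The only probe set that lists Atf1 also lists its pseudogene, so Atf1 was not analysed here. The main probe set of a gene was the one with the highest mean over the arrays. All 5 main probe sets were among the 12091 genes tested, which had a signal above the array median on at least 2 arrays, and so were 10 of the other 11 probe sets by the same filter.

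Cyclic AMP activates protein kinase A (PKA), which phosphorylates CREB, the product of Creb1, and its relatives ATF1 and CREM. Phosphorylated CREB bound to cAMP response elements (CREs) recruits the acetyltransferases CBP and p300, while CRTC coactivators, held in the cytoplasm when salt-inducible kinases phosphorylate them, enter the nucleus once PKA has inhibited those kinases. Crem and Sik1 are known CREB targets that act against the pathway: an internal promoter of Crem makes the short repressor ICER, which in T cells can occupy promoters of cytokine genes such as Il2, and SIK1 phosphorylates CRTCs.

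The cells were CD4 T cells from the spleens of mice aged 8 weeks, either WT or IFN-gR1 KO, which lack a working ligand-binding chain of the interferon-gamma receptor. Cells of all groups were stimulated through CD3 and CD28 with antibodies for 15 h, and db-cAMP, a membrane-permeable cAMP analogue, or vehicle was present during the last 3 h. Each of the 4 groups, WT vehicle, WT db-cAMP, KO vehicle and KO db-cAMP, had 2 Affymetrix arrays, numbered 1 and 2 as in the titles. The labels call the arrays biological replicates but do not say whether they came from separate mice. The p-values therefore measure the spread between these arrays, which limma also takes in part from other genes. With 2 arrays a group their precision is limited.

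The free-text descriptions of the 4 KO arrays name the cells WT, against the titles, sources and genotype entries, which were followed. Ifngr1, the targeted gene, read 889 ± 22.4 (SD, n = 2) in WT vehicle, 7760 ± 624 in WT db-cAMP, 408 ± 43.5 in KO vehicle and 1164 ± 153 in KO db-cAMP. The sources used here leave unsaid how this probe set is placed relative to the deletion, so it checks nothing about the label. Gbp2, a guanylate-binding protein gene known to be induced by interferon-gamma, stood lower on every KO array than on any WT array, at 7532 ± 808 (SD, n = 2) in WT vehicle and 25020 ± 1030 in WT db-cAMP against 432 ± 68.2 in KO vehicle and 642 ± 51.3 in KO db-cAMP, in the direction of the titles. The 7 measured of 8 CD4 T cell markers summed to 66500 to 74610 on every array. Cd4 itself, with group means of 303 to 439, made little of this, so the sum says little about it. Single markers also shifted within the sum. In KO against WT cells limma called 1 higher and 2 lower under vehicle, and 3 higher and 1 lower under db-cAMP. Of all genes 10.8% and 29.2% were called there. Cd3d was called lower and Cd28 higher under both treatments. For db-cAMP 1 was called higher and 3 lower in WT cells, and 1 higher and 0 lower in KO cells, beside 35.0% and 8.38% of all genes. The 4 of 5 B cell markers summed to 464 to 640 in WT and 304 to 367 in KO cells, and of them Cd79b and Ms4a1 were called lower in KO cells under db-cAMP (log2 -1.28 ± 0.4 and -0.76 ± 0.25, limma adjusted p = 0.0288 and 0.0345). Poly-A spike-in signals were 1019 to 1486 on the WT arrays and 3007 to 4238 on the KO arrays, and 18S rRNA signals were 24550 to 28570 with vehicle and 31400 to 38700 with db-cAMP. CD8 T cell markers summed to 367 to 516 in WT and 270 to 335 in KO cells. Of these Cd8b1 was called lower in KO cells under vehicle and db-cAMP (log2 -0.92 ± 0.21 and -0.89 ± 0.21, limma adjusted p = 0.0121 and 0.00514). Cd8a was not called (-0.22 ± 0.3 and 0.035 ± 0.3, adjusted p = 0.743 and 0.948). The 2 measured of 3 NK cell markers summed to 396 to 525 with vehicle and 769 to 944 with db-cAMP, a rise of Klrd1 alone. The other, Ncr1, was too dim to pass the filter and did not rise. Its means were 22.2 with vehicle and 13.2 with db-cAMP in WT cells, and 26 and 10.5 in KO cells. These shifts run along the same lines as genotype and treatment, and their part in the results below was not tested. In RNA from a whole culture, fewer cells of a type and less RNA per cell cannot be told apart.

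After db-cAMP, Crem rose in both genotypes and to a lower level in KO cells, Sik1 rose in both, and Creb1 stood within 0.04 log2 units of its vehicle level while differing between the genotypes on its main probe set. In WT cells 2 of the 5 measured genes, Crem and Sik1, were called higher and 0 lower by limma at an adjusted p of 0.05 (3 higher and 0 lower at an unadjusted p of 0.05). Of all genes tested 35.0% were called in that comparison, 16.4% higher and 18.6% lower. In KO cells the same 2 genes were called higher and 0 lower (the same 2 and 0 unadjusted), against 8.38% of all genes, 4.70% higher and 3.68% lower. The median log2 change of the 5 genes was 0.69 in WT and 0.41 in KO cells, beside 0.01 and -0.004 over all genes. For the mean of both db-cAMP effects, where 33.3% of genes were called, Crem and Sik1 passed and the other 3 did not.

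**Figure D1:**
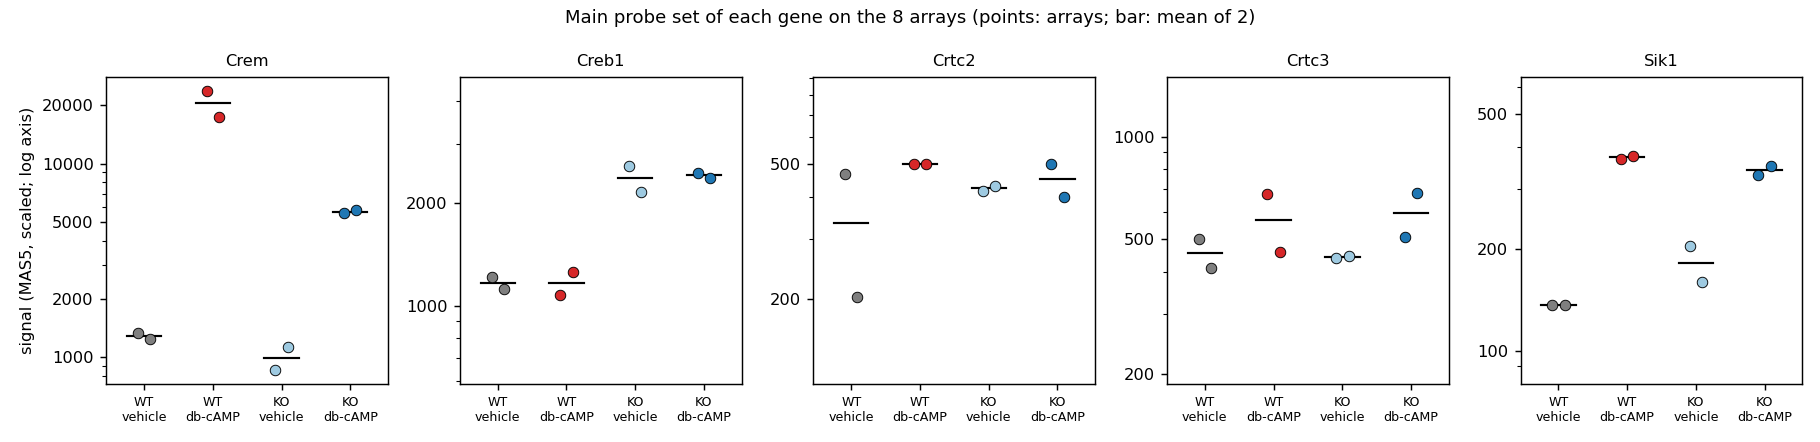
Signals of the main probe set of Crem, Creb1, Crtc2, Crtc3 and Sik1 on the 8 arrays (scaled MAS5 signal, log axis with its own range in each panel); points are arrays and bars the mean of 2. The db-cAMP arrays lie above the vehicle arrays for Crem and Sik1 in each genotype, and for Creb1 the 4 KO arrays lie above the 4 WT arrays.

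Crem, which encodes activators and the cAMP-inducible repressor ICER, gave the largest response among these genes. Its main probe set, 1449037_at, read 1336 and 1241 on the WT vehicle arrays and 23700 and 17500 on the WT db-cAMP arrays. In KO cells it read 860 and 1122 with vehicle and 5544 and 5764 with db-cAMP. The db-cAMP groups did not overlap with vehicle or with each other, whereas the vehicle groups, with means of 1289 ± 66.8 and 991 ± 185 (SD, n = 2), lay close together without overlapping. In WT cells Crem rose 15.8-fold (log2 3.98 ± 0.14, SE; adjusted p = 2.6e-10 in limma), the rise of rank 9 among the 12091 genes. In KO cells it rose 5.73-fold (log2 2.52 ± 0.14, adjusted p = 1.54e-07), the rise of rank 10.

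The rise of Crem was smaller in KO cells. The difference between the rises was -1.46 ± 0.19 on the log2 scale (95% interval -1.88 to -1.04, limma adjusted p = 0.000333 for the interaction), in a comparison that called 11.8% of all genes. Crem was the 1 gene called there, lower, among the 5, and 0 were called higher (also 1 and 0 at an unadjusted p of 0.05). Under db-cAMP its signal was 3.6-fold lower in KO than in WT cells (log2 -1.85 ± 0.14, adjusted p = 4.86e-07), and under vehicle the difference of -0.39 ± 0.14 did not pass (adjusted p = 0.0934). Without the intensity trend in limma's variance the interaction kept its size but missed the threshold (adjusted p = 0.0674). The vehicle difference passed without WT db-cAMP array 1 (adjusted p = 0.0439) or 2 (0.0427) or KO vehicle array 2 (-0.58, 0.0415), and with arrays scaled to an equal 75th percentile (-0.48, 0.0367).

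The 4 Crem probe sets did not move alike. The probe set 1418322_at read 416 and 515 in WT vehicle, 7571 and 7326 in WT db-cAMP, 367 and 449 in KO vehicle and 2145 and 2048 in KO db-cAMP. Like the main one it put the db-cAMP arrays above all vehicle arrays and WT above KO among them, with rises of 3.99 ± 0.12 in WT and 2.35 ± 0.12 in KO on the log2 scale (adjusted p = 1.78e-10 and 1.94e-07 over 45037 probe sets). Its interaction was -1.64 ± 0.17 (adjusted p = 0.000129).

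The remaining pair of Crem probe sets was dimmer, near the array medians of 56.2 to 70.5. The probe set 1430598_at read 109 and 94.8 in WT vehicle, 214 and 269 in WT db-cAMP, 99.6 and 52.4 in KO vehicle and 49.8 and 76 in KO db-cAMP. Its WT db-cAMP arrays were the highest and the KO groups overlapped. The change in WT, 1.2 ± 0.41, missed the threshold (adjusted p = 0.0693) and that in KO was -0.22 ± 0.41 (adjusted p = 0.943), yet under db-cAMP KO cells were lower by a log2 change of -1.87 ± 0.41 (adjusted p = 0.00578). The probe set 1430847_a_at read 35.6 to 85.7 over all arrays with every group overlapping, and its changes were -0.04 ± 0.62 in WT and -0.09 ± 0.62 in KO cells.

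The change by db-cAMP was set against that of the main Crem probe set within each array. On the log2 scale the main probe set rose by 0.08 more than 1418322_at (exact two-sided permutation p = 0.6, 4 against 4 arrays), by 2.76 more than 1430598_at and by 3.31 more than 1430847_a_at (exact p = 0.0286 for each, 0.0429 adjusted over the 3 pairs). With 70 arrangements 0.0286 is the smallest p this test can give. Within WT and KO cells these excesses were -0.01 and 0.17, 2.78 and 2.73, and 4.02 and 2.61. No source used here says which Crem transcripts, ICER among them, each probe set reads. A dim probe set has less range above background, so a smaller change in it does not give the size of the change in its transcripts.

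**Figure D2:**
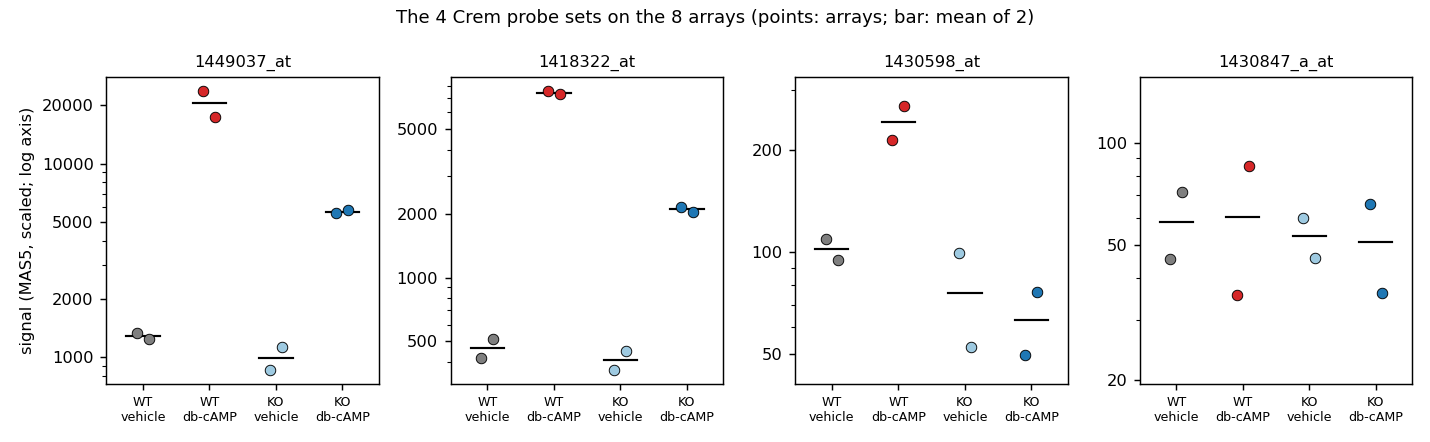
Signals of the 4 Crem probe sets on the 8 arrays (scaled MAS5 signal, log axis with its own range in each panel); points are arrays and bars the mean of 2. 1449037_at and 1418322_at show the same order of groups, 1430598_at is high only on the WT db-cAMP arrays at 214 and 269, and the groups of 1430847_a_at overlap.

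Sik1, the salt-inducible kinase that phosphorylates CRTCs and is itself induced by CREB, rose less than Crem. Its main probe set, 1419766_at, read 137 on each WT vehicle array, 368 and 376 in WT db-cAMP, 203 and 160 in KO vehicle and 331 and 350 in KO db-cAMP. The 4 groups did not overlap, and their order was WT vehicle, KO vehicle, KO db-cAMP and WT db-cAMP. The rise was 2.65-fold in WT cells (log2 1.41 ± 0.21, adjusted p = 0.000117 in limma) and 1.86-fold in KO cells (log2 0.9 ± 0.21, adjusted p = 0.0165). The KO rise rested on all of its arrays but 1, since it missed the threshold without KO vehicle array 2 (0.73, adjusted p = 0.152), KO db-cAMP array 1 (0.94, 0.0999) or KO db-cAMP array 2 (0.86, 0.145), and also as the mean of both probe sets (0.66, 0.234).

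The Sik1 rise in KO minus that in WT cells was -0.51 ± 0.29 (95% interval -1.14 to 0.12, adjusted p = 0.325), so a difference between genotypes was not resolved, and the interval includes a rise in KO cells smaller by more than 1 log2 unit. KO and WT cells did not differ past the threshold under vehicle (0.39 ± 0.21, adjusted p = 0.294) or db-cAMP (-0.12 ± 0.21, adjusted p = 0.71). The dimmer second probe set, 1459601_at, read 21.2 and 33.1 in WT vehicle, 78.3 and 86.7 in WT db-cAMP, 77 and 56.5 in KO vehicle and 76.9 and 107 in KO db-cAMP. It separated the treatments in WT cells, where the change of 1.45 ± 0.52 missed the threshold (adjusted p = 0.0901), while the KO groups touched at 77 and 76.9 (0.43 ± 0.52, adjusted p = 0.893).

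Creb1, the constitutive activator of the pathway, read 1213 and 1118 in WT vehicle and 1072 and 1254 in WT db-cAMP on its main probe set 1452901_at. In KO cells it read 2585 and 2154 with vehicle and 2461 and 2382 with db-cAMP. The treatments overlapped in each genotype and every KO array lay above every WT array. The change by db-cAMP was -0.01 ± 0.11 in WT (95% interval -0.24 to 0.23, limma adjusted p = 0.974) and 0.04 ± 0.11 in KO cells (-0.2 to 0.28, adjusted p = 0.91), so rises beyond 0.23 and 0.28 log2 units lay outside these intervals. The other 5 Creb1 probe sets changed by between -0.55 and 0.05 with db-cAMP over both genotypes, none past the threshold (lowest adjusted p = 0.225 in limma).

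Creb1 was called higher in KO cells on that probe set, 2.02-fold under vehicle (log2 1.02 ± 0.11, adjusted p = 5.81e-05) and 2.08-fold under db-cAMP (log2 1.06 ± 0.11, adjusted p = 9.53e-06). It was the 1 gene of the 5 called higher under vehicle, with 0 lower (1 higher and 1 lower, Crem, at an unadjusted p of 0.05), where 10.8% of all genes were called. Under db-cAMP it was the 1 called higher beside Crem lower, where 29.2% were called, 15.9% higher and 13.3% lower. The other Creb1 probe sets did not carry this difference to the same size. Averaged over the 5 Creb1 probe sets that passed the filter, a setting added after the data were seen, the difference was 0.43 under vehicle and 0.37 under db-cAMP and missed the threshold (limma adjusted p = 0.0934 and 0.0871). Averaged over all 6, which brings in 1421583_at, not above the array median on any array, it was 0.1 and 0.07 (adjusted p = 0.841 and 0.84).

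The probe set 1428755_at read 1081 and 1169 in WT vehicle, 776 and 994 in WT db-cAMP, 1553 and 1026 in KO vehicle and 1221 and 1407 in KO db-cAMP. Its vehicle groups overlapped and its db-cAMP groups did not, and KO cells were higher only under db-cAMP by the test (0.57 ± 0.17, adjusted p = 0.0385, against 0.17 ± 0.17 and 0.756 under vehicle). The other 4 stood between -1.55 and 0.47 in KO against WT cells, and none passed (lowest adjusted p = 0.254). Of these 1421583_at, too dim to pass the filter, was not compared with the main probe set. KO-minus-WT differences of the main probe set exceeded those of 1428755_at, 1423402_at and 1452529_a_at by 0.67, 0.73 and 1.18 on the log2 scale. Each pair reached the smallest exact permutation p of 0.0286 and missed the threshold after adjustment (0.0715) over the 10 pairs of main and other probe sets that passed the filter, a set of tests chosen after the data were seen.

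**Figure D3:**
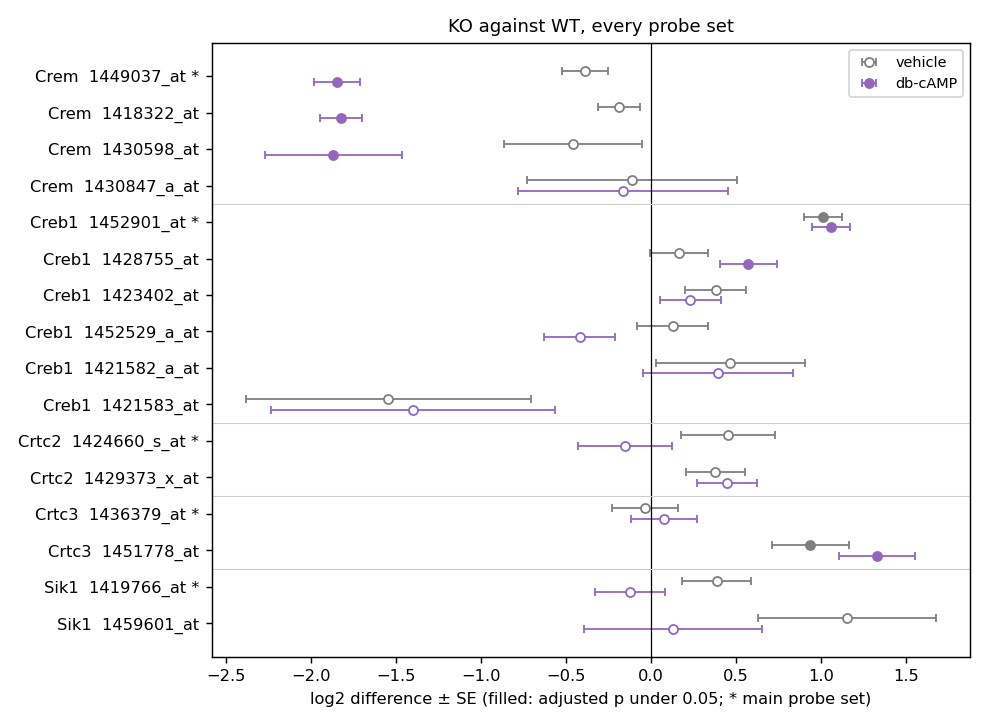
Log2 difference of KO from WT cells under vehicle and under db-cAMP for all 16 probe sets, with SE bars; filled points have an adjusted p under 0.05 over 45037 probe sets and an asterisk marks the main probe set. Under db-cAMP 3 of 4 Crem probe sets lie near -1.85, and of the Creb1 and Crtc3 probe sets 1452901_at and 1451778_at are called under both treatments.

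The coactivators Crtc2 and Crtc3, which bind CREB in the nucleus once dephosphorylated, did not pass the test with db-cAMP on any probe set. The main Crtc2 probe set, 1424660_s_at, read 468 and 203 in WT vehicle, 500 and 499 in WT db-cAMP, 418 and 430 in KO vehicle and 502 and 401 in KO db-cAMP. WT vehicle array 2 was the low array and the KO groups overlapped. The change was 0.69 ± 0.28 in WT cells (adjusted p = 0.0773) and 0.08 ± 0.28 in KO cells (adjusted p = 0.925). Leaving out WT vehicle array 1, which leaves the low array to stand for its group, gave 1.28 in WT (adjusted p = 0.000363), 0.68 for the mean of both effects (0.00139), 1.04 for KO against WT under vehicle (0.00753) and -1.2 for the interaction (0.0123), and without array 2 the WT change was 0.09. The second Crtc2 probe set, 1429373_x_at, read 282 and 290 in WT vehicle, 340 and 389 in WT db-cAMP, 421 and 330 in KO vehicle and 453 and 546 in KO db-cAMP. Its db-cAMP arrays lay above the vehicle arrays in each genotype, by 0.34 ± 0.18 and 0.41 ± 0.18, and neither passed (adjusted p = 0.266 and 0.379).

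Crtc3 read 500 and 411 in WT vehicle, 678 and 459 in WT db-cAMP, 439 and 444 in KO vehicle and 507 and 682 in KO db-cAMP on its main probe set 1436379_at. The treatments overlapped in WT cells and not in KO cells, and the changes were 0.3 ± 0.2 (adjusted p = 0.284) and 0.41 ± 0.2 (adjusted p = 0.266). Their mean of 0.35 ± 0.14 missed the threshold (adjusted p = 0.0699) and passed without WT db-cAMP array 2 (0.49, 0.0121) or KO db-cAMP array 1 (0.46, 0.0387). The genotypes differed by -0.04 ± 0.2 under vehicle and 0.08 ± 0.2 under db-cAMP.

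The second Crtc3 probe set, 1451778_at, set the genotypes apart where the main one did not. It read 168 and 170 in WT vehicle, 125 and 176 in WT db-cAMP, 371 and 292 in KO vehicle and 368 and 397 in KO db-cAMP. Every KO array lay above every WT array, by 0.94 ± 0.22 under vehicle (adjusted p = 0.0247) and 1.33 ± 0.22 under db-cAMP (adjusted p = 0.000898). The main probe set's genotype difference was lower by 1.12 on the log2 scale (exact permutation p = 0.0286, 0.0715 adjusted over the 10 pairs). As the mean of both probe sets, Crtc3 was called higher in KO cells under db-cAMP (0.7, adjusted p = 0.00819).

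Fitted on every probe set with no filter, 13.9% of 45037 were called for db-cAMP in WT, 2.37% in KO, 5.18% for KO against WT under vehicle, 13.0% under db-cAMP and 3.30% for the interaction. Of the 16 probe sets 3 were called in WT and the same 3 in KO cells, 1449037_at and 1418322_at of Crem and 1419766_at of Sik1. For KO against WT under vehicle 1452901_at of Creb1 and 1451778_at of Crtc3 were called. Under db-cAMP 6 were called: 1449037_at, 1418322_at and 1430598_at of Crem lower, and 1452901_at and 1428755_at of Creb1 and 1451778_at of Crtc3 higher. For the interaction 1449037_at and 1418322_at of Crem were called, both lower.

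**Figure D4:**
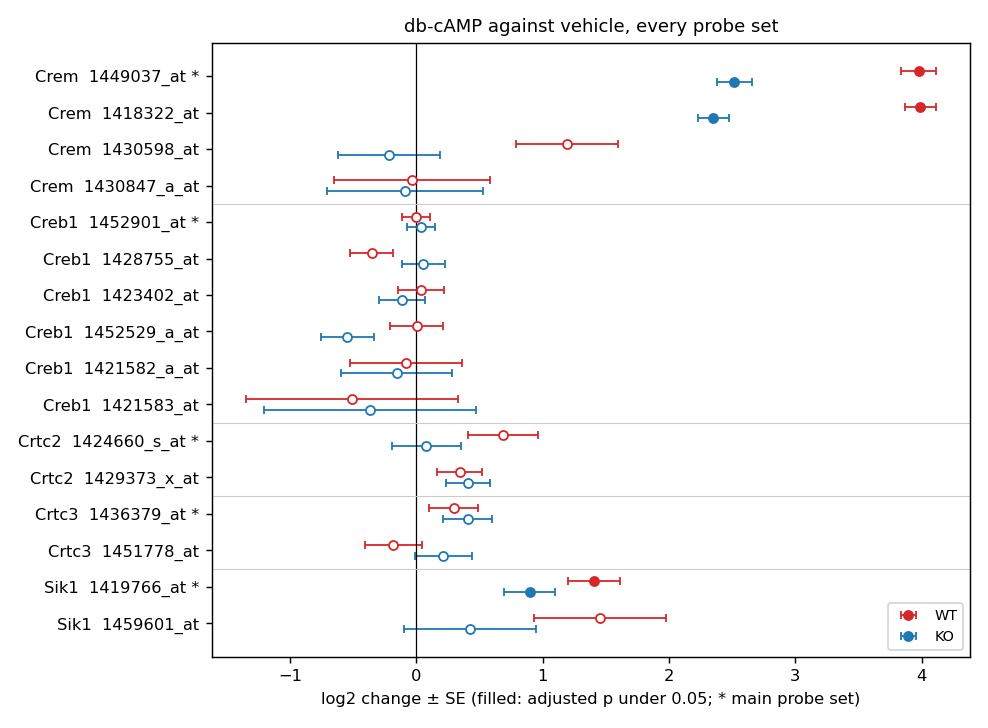
Log2 change by db-cAMP in WT and KO cells for all 16 probe sets, with SE bars; filled points have an adjusted p under 0.05 over 45037 probe sets and an asterisk marks the main probe set. The filled points are those of Crem 1449037_at and 1418322_at, between 2.35 and 3.99, and of Sik1 1419766_at, at 1.41 in WT and 0.9 in KO.

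Likeness was measured by Pearson's r over the 8 arrays with each main probe set, as a description: with 4 groups it mostly reflects the group means, and all arrays share one scaling. The genes most like Crem were Hsdl2, Selplg, Klf6, Ugcg and Stat4, at r from 0.994 to 0.997, and 275 genes exceeded 0.95. Stat4, which transmits IL-12 signals, rose by 2.47 in WT and 1.70 in KO cells. Those most like Sik1 were Stat3, Pik3r1, Bcl6, Kmt2e and L3mbtl3, at 0.989 to 0.996. Crem and Sik1 themselves correlated at 0.886.

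Creb1 was most like Thoc2, Cpsf2 and Csnk2a1 (r from 0.993 to 0.997), and each of these stood higher in KO cells, by 0.86 to 1.47 on the log2 scale. Crtc2 was most like Sparc, Gdf2 and Creg1 (0.966 to 0.969) and Crtc3 most like Ankrd39, Oip5os1 and Samd8 (0.914 to 0.961).

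Of 13 listed relatives and partners of CREB 11 were tested, and 4 were called higher and 2 lower in WT cells, where 35.0% of all genes were called, with a median of 0.27 beside 0.01 over all genes. Crebl2, a CREB-like bZIP factor, rose by 0.89 ± 0.24, Creb3l2, a membrane-bound factor of the secretory pathway, by 0.84 ± 0.16, and its relative Creb3 by 0.64 ± 0.13 (adjusted p = 0.0108, 0.000973 and 0.00165). Crebbp, which encodes CBP, rose by 0.3 ± 0.11 (adjusted p = 0.0435), Crebzf fell by 0.46 (0.00214) and Atf4, the stress response factor, fell by 0.2 (0.0371). In KO cells 3 were called higher and 0 lower in limma (4 and 1 at an unadjusted p of 0.05), against 8.38% of all genes, with a median of 0.2: Creb3l2 by 0.69 ± 0.16, Ep300, which encodes p300, by 0.56 ± 0.16, and Crebbp by 0.42 ± 0.11 (adjusted p = 0.0173, 0.0497 and 0.0273).

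When probe sets were averaged, Crebbp missed the threshold in WT (0.21, adjusted p = 0.225) and KO cells (0.19, 0.482), as did Atf4 in WT (0.524) and Creb3l2 (0.58, 0.078) and Ep300 (0.104) in KO cells. Several of these calls also rested on single arrays. Crebl2 missed the threshold without WT vehicle array 1 (adjusted p = 0.0837) or WT db-cAMP array 2 (0.0604), and likewise when its probe sets were averaged (0.4, 0.466). Crebbp in WT missed it without WT vehicle array 1 (0.259), WT db-cAMP array 1 (0.241) or either KO db-cAMP array (0.0552 and 0.0554), and Atf4 without any one WT array (0.064 to 0.138) or either KO db-cAMP array (0.055 and 0.0552). In KO cells Creb3l2 missed it without any one KO array (0.0658 to 0.164), Crebbp without KO vehicle array 2 (0.266) or either KO db-cAMP array (0.0718 and 0.222), and Ep300 without KO vehicle array 2 (0.41) or any one db-cAMP array of either genotype (0.0563 to 0.28).

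The next list held kinases upstream of and beside SIK1, phosphatases acting on CRTCs and the class IIa HDACs that SIKs phosphorylate. It also held Cab39 and the 14-3-3 protein genes Ywhab, Ywhae and Ywhaz, and 16 of its 17 genes were tested. In WT cells 5 were called higher and 1 lower, with a median of 0.07 beside 0.01, and 6 of 16 is close to the 35.0% of all genes called. Hdac7, a class IIa histone deacetylase of T cells, changed by -1.61 ± 0.1 (adjusted p = 4.99e-08). Stk11, which encodes the SIK-activating kinase LKB1, rose by 0.91 ± 0.11 (adjusted p = 2.47e-05), but by 0.18 (0.746) as the mean of its probe sets. Hdac5 rose by 0.71 ± 0.2, a call lost without WT vehicle array 2 (adjusted p = 0.137) or WT db-cAMP array 1 (0.14). Mark2, a related LKB1-activated kinase, rose by 0.5 ± 0.15, a call lost without WT vehicle array 1 (0.166) or WT db-cAMP array 1 (0.131) and when its probe sets were averaged (0.15, 0.574). The 14-3-3 protein gene Ywhaz and the phosphatase 2A subunit gene Ppp2ca rose by 0.33 ± 0.07 and 0.28 ± 0.07, and stood at 0.04 and 0.15 as means of their probe sets (adjusted p = 0.756 and 0.315).

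In KO cells 1 of the 16 was called higher and 1 lower, beside 8.38% of all genes, with a median of 0.09. Hdac7 fell by 0.57 (SE 0.1, adjusted p = 0.00324), and its KO change differed from the WT one by 1.04 ± 0.14 (adjusted p = 0.000499). Sik3, the third salt-inducible kinase gene, stood 0.38 ± 0.11 higher (adjusted p = 0.0421), which no longer passed without either WT vehicle array (0.0505 and 0.0508), KO vehicle array 2 (0.34) or either KO db-cAMP array (0.184 and 0.202), or when its probe sets were averaged (0.39, 0.38). The change of Sik2 was -0.15 ± 0.18 in WT and 0.09 ± 0.18 in KO cells (adjusted p = 0.577 and 0.864). The calcineurin genes Ppp3ca, Ppp3cb and Ppp3r1 were not called in either genotype (lowest adjusted p = 0.0791, for Ppp3cb in WT cells, which passed without WT vehicle array 2 at -0.3, 0.0433).

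PKA itself was represented by 7 of 9 listed subunits and inhibitors, of which 2 were called higher and 1 lower in WT cells, close to the 35.0% of all genes called, with a median of 0.33 beside 0.01. The catalytic subunit gene Prkaca rose by 0.59 ± 0.11 and the regulatory subunit gene Prkar1a by 0.47 ± 0.07, while the regulatory subunit gene Prkar2a changed by -0.64 ± 0.15 (adjusted p = 0.000653, 8.31e-05 and 0.00401). As means of their probe sets Prkar1a and Prkar2a missed the threshold (adjusted p = 0.119 and 0.167). In KO cells limma called 0 of the 7 (2 higher and 0 lower at an unadjusted p of 0.05), beside 8.38% of all genes, with a median of 0.07.

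Known CREB target genes, a list set up from general knowledge of CREB with results of these data already known, were called higher more often than lower. Of 29 tested of 33, 16 were called higher and 5 lower in WT cells, where 16.4% of all genes were called higher and 18.6% lower, with a median of 0.92 beside 0.01 over all genes. In KO cells 14 were called higher and 3 lower, where 4.70% of all genes were called higher and 3.68% lower, with a median of 0.66. The 4 largest changes in WT cells were those of Vps37b, an endosomal sorting gene (4.04 ± 0.11), the Krüppel-like factor gene Klf4 (3.87 ± 0.16), the cAMP phosphodiesterase gene Pde4d (3.74 ± 0.14) and the cytokine gene Il2 (-3.59 ± 0.18), with adjusted p = 3.67e-11, 9.97e-10, 4.89e-10 and 6.62e-09. In KO cells they were those of Vps37b (2.71), Pde4d (2.66), the insulin receptor substrate gene Irs2 (2.48) and Klf4 (2.27). Pde4d missed the threshold as the mean of its probe sets, at 1.2 in WT and 1.54 in KO cells (adjusted p = 0.0702 and 0.0878), and Irs2 in KO cells missed it without KO vehicle array 2 (1.46, 0.0536), KO db-cAMP array 1 (0.0981) or 2 (0.063).

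The KO change minus the WT change by db-cAMP had either sign among these targets, mostly from smaller changes in KO cells. For the interaction 3 were called higher and 9 lower in KO cells, with a median of -0.27 beside 0.01, in a comparison that called 6.70% of all genes higher and 5.09% lower. The largest were Il2 at 2.14 ± 0.26, Klf4 at -1.6 ± 0.23, Vps37b at -1.33 ± 0.15 and Rgs2, a regulator of G protein signalling, at -1.15 ± 0.11 (adjusted p = 0.000176, 0.000544, 0.000136 and 2.58e-05). When its probe sets were averaged Rgs2 stood at -0.48 and missed the threshold (adjusted p = 0.212), and Il2 missed it without the intensity trend (0.0539). For Il2 the positive difference means a smaller fall in KO cells, where it changed by -1.45 ± 0.18. Egr1, also called higher, likewise fell less, by -0.87 ± 0.12 in KO against -1.8 ± 0.12 in WT cells. Nr4a1, called higher too, changed more in KO cells, by 0.66 ± 0.11 against 0.07 ± 0.11. The 9 called lower had changes above 0 in both genotypes, smaller in KO cells. Under db-cAMP 5 were called higher and 14 lower in KO than in WT cells, with a median of -0.41, where 15.9% of all genes were called higher and 13.3% lower. Under vehicle 4 were called higher and 4 lower, with a median of 0.02, where 10.8% of all genes were called. These comparisons share arrays.

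**Figure D5:**
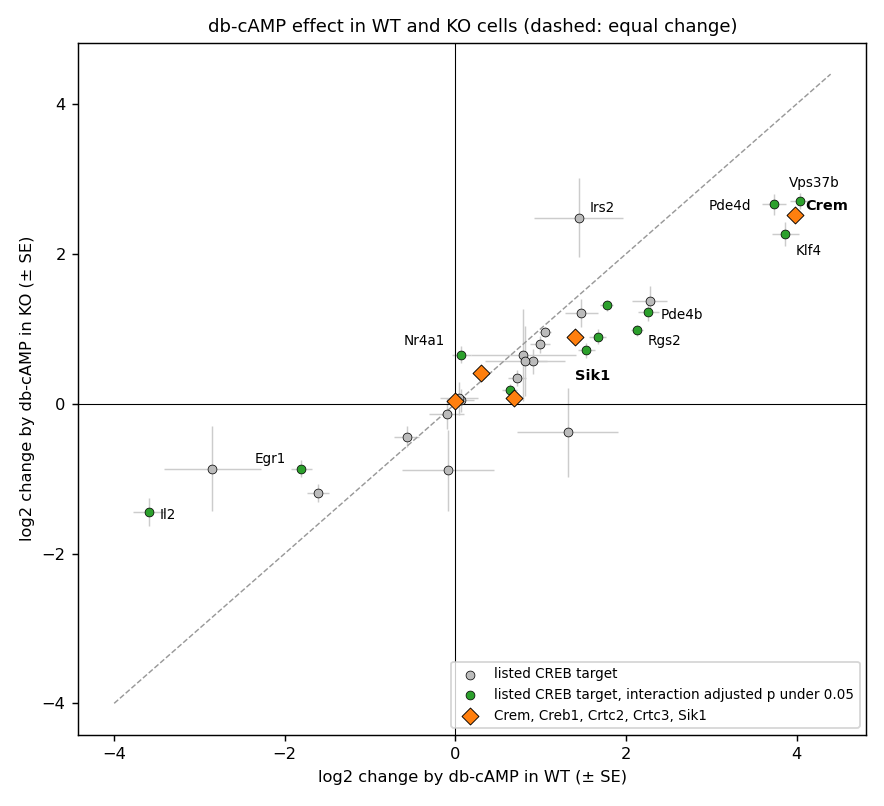
Log2 change by db-cAMP in WT cells (x axis) and KO cells (y axis) for the 29 tested CREB targets, with SE bars, and for Crem, Creb1, Crtc2, Crtc3 and Sik1 as diamonds without bars; green marks targets whose changes differed between the genotypes (interaction adjusted p under 0.05). Crem, at 3.98 and 2.52, lies below the line of equal change beside Vps37b, Pde4d and Klf4, and Il2, at -3.59 and -1.45, lies above it.

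Promoter windows from RefSeq on the build GRCm38.p6, running from 250 bases before to 50 after an annotated start, were searched on both strands for the CRE, TGACGTCA, and for its short forms TGACG or CGTCA, which the full CRE contains. Of 32851 promoters 1.79% held a full CRE and 20.8% a short string, and of the 27025 genes they belong to 2.03% and 23% had at least 1 such window. The table held windows of 3 of the 6 genes, Creb1, Atf1 and Crtc3. Of these 0 held a full CRE and 1, Atf1, a short string. A match is a string of letters, not a bound site. The windows of Creb1 and Crtc3, which hold neither string, are shown whole as the members' own promoters in the table.
Creb1 chr1:64532554-64532853 (+ strand): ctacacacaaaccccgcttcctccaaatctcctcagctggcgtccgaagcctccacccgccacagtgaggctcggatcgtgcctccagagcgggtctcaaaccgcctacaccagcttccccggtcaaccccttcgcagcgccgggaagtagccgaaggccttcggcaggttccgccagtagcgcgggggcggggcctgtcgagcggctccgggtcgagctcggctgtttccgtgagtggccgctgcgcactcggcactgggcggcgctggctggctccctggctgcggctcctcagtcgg
Crtc3 chr7:80688828-80689127 (- strand): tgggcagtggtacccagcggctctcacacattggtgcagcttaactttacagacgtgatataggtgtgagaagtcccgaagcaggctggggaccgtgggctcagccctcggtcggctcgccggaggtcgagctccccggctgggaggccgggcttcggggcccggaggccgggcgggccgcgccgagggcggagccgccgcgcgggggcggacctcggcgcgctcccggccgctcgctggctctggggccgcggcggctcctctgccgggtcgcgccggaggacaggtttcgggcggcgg

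Of 33 listed CREB targets 25 had a window, and 2 held a full CRE and 21 a short string. Known targets were partly identified by such sites, so this is no independent count. For 6 of them, chosen after their values were seen as genes called higher in both genotypes, the stretch from the first to the last match is shown with 20 bases on each side and the CRE letters in capitals. They are the phosphatase gene Dusp1, the nuclear receptor gene Nr4a2, Rgs2, the phosphodiesterase gene Pde4b, the bZIP repressor gene Nfil3 and Fos. Pde4b had windows at 4 start sites, and only the window shown held a match. Which of these start sites its probe set reads was not tested.
Dusp1 chr17:26508588-26508683 (- strand): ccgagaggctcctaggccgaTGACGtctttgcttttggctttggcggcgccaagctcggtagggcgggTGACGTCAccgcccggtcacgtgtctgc
Nr4a2 chr2:57124090-57124223 (- strand): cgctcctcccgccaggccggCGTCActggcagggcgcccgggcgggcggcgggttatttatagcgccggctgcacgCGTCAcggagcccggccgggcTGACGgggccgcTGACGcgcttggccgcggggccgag
Rgs2 chr1:144004192-144004354 (- strand): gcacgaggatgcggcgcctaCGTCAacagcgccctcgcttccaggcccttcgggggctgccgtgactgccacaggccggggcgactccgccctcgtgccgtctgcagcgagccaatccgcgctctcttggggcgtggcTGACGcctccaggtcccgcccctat
Pde4b chr4:102421501-102421545 (+ strand): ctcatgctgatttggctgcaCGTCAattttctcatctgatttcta
Nfil3 chr13:52981074-52981118 (- strand): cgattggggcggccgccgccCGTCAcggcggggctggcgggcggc
Fos chr12:85473741-85473848 (+ strand): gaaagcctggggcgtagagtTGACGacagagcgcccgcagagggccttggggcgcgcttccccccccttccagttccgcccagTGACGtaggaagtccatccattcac

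The Dusp1 stretch holds 1 full CRE among its 3 short CRE strings, and the Nr4a2 stretch holds 4 short CRE strings. On the log2 scale Dusp1 rose by 1.67 ± 0.1 in WT and 0.89 ± 0.1 in KO cells, Nr4a2 by 1.77 ± 0.07 and 1.31 ± 0.07, Rgs2 by 2.13 ± 0.08 and 0.98 ± 0.08 and Pde4b by 2.26 ± 0.12 and 1.23 ± 0.12. Nfil3 rose by 1.48 ± 0.19 and 1.21 ± 0.19, and Fos by 0.99 ± 0.12 and 0.79 ± 0.12. All 12 changes had an adjusted p of at most 0.0012 in limma. These 6 genes were picked by their rise, so no relation between strings and response is read from them. The window of Pde4d, with rises of 3.74 and 2.66, held neither string. Which start site the Pde4d probe set reads was not tested. The Cebpb window held 3 short strings, with changes of 0.07 in WT and 0.05 in KO cells (limma adjusted p = 0.781 and 0.918). No relation is read from these single genes either.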

How the data were processed

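RNA from 8 cultures was hybridised to Affymetrix arrays. The deposited values are linear MAS5 signal intensities, per the submitters' processing notes, 1 for each of 45101 probe sets. From the values, each array had a trimmed mean of 500 over the central 96% of probe sets. No source used here gives the array type or the MAS5 settings. Probe sets with 1 symbol (34945) were named from the platform annotation, those with several (932) or none (9160) were not, and 64 were controls.

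Values were analysed as log2(value + 5.48), the offset being the 10th percentile, with the probe set of highest mean per gene. Genes above the array median on at least 2 arrays were kept. In R 4.3.3, limma 3.58.1 (lmFit, eBayes with an intensity trend) fitted 1 term a group to all 8 arrays (4 residual degrees of freedom), with Benjamini-Hochberg adjustment at 0.05. The variance of each gene was moderated by that of other genes (median prior degrees of freedom 8.995). Every probe set was fitted likewise without the filter. The offset makes fold changes of dim probe sets smaller. Exact permutation tests compared probe sets, rearranging all 8 arrays without keeping the groups of the other factor, genotype or treatment, apart. The fit was tested on simulated data. Figures were drawn with matplotlib 3.10.9.

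Named genes are the 6 genes chosen in advance with all their probe sets, up to 4 called genes of each list with the largest change, all genes of the CREB family and SIK lists where space allowed, and the 5 genes most like Crem and Sik1 and the 3 most like each other gene. The genes and lists were chosen with earlier results of these data known. Alternatives changed the offset, scaling, filter, probe set rule (the mean of passing probe sets was added after the data were seen), variance trend and replicate block, and left out each array. Replicate numbers did not pair the arrays: the correlations of deviations between same-numbered arrays lay between -0.02 and 0.02. Pearson correlations between replicate arrays, over genes, were 0.961 to 0.977.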

Additional observations from a re-analysis of the deposited data

Results flagged for a closer look

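The db-cAMP effect differed between KO and WT cells by the interaction test for Crem and for 15 listed genes, given here as the KO change minus the WT change on the log2 scale. That test called 11.8% of all genes. Of 11 tested CREB family genes it called 0, and of 16 tested genes of the kinase, phosphatase and HDAC list 1 higher and 1 lower. Of 7 PKA genes 1 was called lower, and of 29 CREB targets 3 were called higher and 9 lower. Crem stood at -1.46 (limma adjusted p = 0.000333). Of the kinase, phosphatase and HDAC genes Stk11 stood at -0.82 and Hdac7 at 1.04, and of the PKA genes Prkar1a stood at -0.32.

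Among CREB targets the phosphodiesterase genes Pde4b, Pde4d and Pde3b stood at -1.03, -1.07 and -0.82. Klf4 stood at -1.6, Vps37b at -1.33, Rgs2 at -1.15, Dusp1 at -0.78, Nr4a2 at -0.46 and the survival gene Mcl1 at -0.45. All of these had smaller rises in KO than in WT cells. The differences were above 0 for Il2 (2.14), Egr1 (0.94) and Nr4a1 (0.59). For Il2 and Egr1 this was a smaller fall in KO cells, and for Nr4a1 a larger rise. When probe sets were averaged Pde4d stood at 0.33 (adjusted p = 0.841), and the call was also lost for Rgs2 (-0.48, 0.212), Pde4b (-0.27, 0.789), Stk11 (-0.98, 0.292), Nr4a2 (-0.42, 0.566), Nr4a1 (0.59, 0.066) and Prkar1a (-0.29, 0.444). Without the intensity trend in limma's variance Rgs2, Klf4 and Vps37b kept the call and the other 13, Crem (adjusted p = 0.0674) and Il2 (0.0539) among them, missed the threshold, with adjusted p up to 0.222 for Nr4a1. Prkar1a, Nr4a1, Nr4a2 and Mcl1 lost the call when some single arrays were left out, with adjusted p from 0.0532 to 0.146, while Crem kept it without each of the 8 arrays in turn.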

How the results depend on the processing

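Of the settings other than leaving out an array, 338 of 350 member values kept their side of the threshold, 7 lost a call and 5 gained one. Leaving out each array kept 228 of 240, with 3 losses and 9 gains. No member value called in the main or the changed fit changed direction. In these tallies, and in those of listed genes below, a value called in neither fit counts as kept even where its sign changed. The cause of a change was not tested unless the setting itself shows it. Averaging the probe sets of a gene gave 0.66 for Sik1 in KO cells, 0.102 and 0.073 for Creb1 in KO against WT under vehicle and db-cAMP, and 0.704 for Crtc3 under db-cAMP. It reversed Prkacb in KO against WT under vehicle (from 0.39 to -0.18) and db-cAMP (from 0.6 to -0.086), and Pde4d in the interaction (from -1.07 to 0.33). It gave 497 genes called for db-cAMP in KO, 794 for KO against WT under vehicle and 709 for the interaction, against 1013, 1311 and 1425. Averaging only the probe sets that passed the filter, a setting chosen after the data were seen, gave 0.66 for Sik1 in KO cells, 0.38 for the mean effect on Crtc2 (adjusted p = 0.0487), 0.43 and 0.37 for Creb1 and 0.704 for Crtc3 in the comparisons named. It reversed Prkacb under vehicle (from 0.39 to -0.045) and Prkar2a under db-cAMP (from 0.6 to -0.14), both in KO against WT. It gave 598 genes called for db-cAMP in KO and 848 for the interaction. Without the intensity trend the counts for db-cAMP in KO, KO against WT under vehicle and the interaction were 188, 251 and 261, and the Crem interaction of -1.46 missed the threshold. With every probe set that passed the filter as a row, which adds rows, calls were 6890 for WT, 6575 for the mean effect, 2733 under vehicle and 6431 under db-cAMP, against 4233, 4032, 1311 and 3529.

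Scaling to an equal 75th percentile gave -0.48 for Crem in KO against WT under vehicle. It moved the share of calls that were higher from 56.1% to 43.1% for db-cAMP in KO, from 46.7% to 25.2% for KO against WT under vehicle and from 54.6% to 37.7% under db-cAMP, and the median of all genes in the last to -0.13. The replicate block passed Crtc2 in WT cells (0.69, adjusted p = 0.0456) and gave 4184 calls for db-cAMP in WT, of which 4109 were also called without it. It changed no other call of the 5 genes, and among named listed genes it ended those of Crebbp in WT, Ep300 in KO and Prkar1a in the interaction (adjusted p = 0.0502, 0.057 and 0.0584). Over all such settings listed genes kept 1037 of 1161 values, with 115 calls lost, 4 gained and the 5 reversals given, and without single arrays 699 of 784, with 80 lost and 5 gained.

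Leaving out 1 array at a time, which leaves a lone array assumed to vary like the other groups, gave 446 to 1089 genes for db-cAMP in KO, 617 to 1391 for KO against WT under vehicle and 891 to 1336 for the interaction. The range was 0.73 to 1.06 for Sik1 in KO cells and -0.58 to -0.198 for Crem under vehicle. For Crtc2 it was 0.093 to 1.28 in WT, 0.086 to 0.68 for the mean effect, -0.14 to 1.04 under vehicle and -1.2 to -0.013 for the interaction, and for the mean effect on Crtc3 0.21 to 0.49. Dim probe sets limit precision: the SE of a db-cAMP change was 0.14 for the brightest Crem probe set and 0.62 for the dimmest.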
